A study of Tribolium castaneum with 9 samples.

Results

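Genes of chromatin were read across 3 groups of adult red flour beetles, Tribolium castaneum, a pest of stored grain. A gene was taken when the first title of its deposited protein description contained histone, demethylase, chromatin, chromodomain, bromodomain, polycomb, trithorax, SWI/SNF, nucleosome or sirtuin. The rule took 40 of the 5467 genes in the deposited table, lysine-specific demethylase 6A (LOC657074, Utx) among them. They were 10 histones, 3 histone chaperones or assembly factors, 2 acetyltransferases, 4 deacetylases or deacetylase subunits, 4 methyltransferases, 5 demethylases, 6 Polycomb group genes, 4 bromodomain or chromodomain genes, 1 SWI/SNF-related helicase and 1 DNA demethylase. The deposited orthology entry differed from the description for LOC662681 and LOC100141679. By their own descriptions ALKBH2 (LOC662784) acts on DNA and LOC656207 is a SMARCAL1-like helicase. These 4 were also left out together as an alternative.

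Eukaryotic DNA is wound around octamers of the core histones H2A, H2B, H3 and H4, with linker histone H1 between them. Chaperones deliver new histones to DNA, acetyltransferases and methyltransferases mark their tails, deacetylases and demethylases remove the marks, and proteins with bromodomains or chromodomains read them. Polycomb proteins keep genes silent, and trithorax-type methyltransferases and Utx act in the opposite direction. Most core histone mRNA is made while a cell copies its DNA, whereas variants such as H3.3 and H2A.V are made throughout the cell cycle.

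The study sequenced total RNA of COS-treated and control beetles, COS being the label for the fumigant carbonyl sulfide, and all beetles carry the phenotype label Susceptible. The groups were fat body of COS-treated adults, Malpighian tubules of COS-treated adults and the whole body of control adults, with 3 libraries each. The fat body is the organ of storage and intermediary metabolism of insects, and the Malpighian tubules are the excretory organ. The labels used here give no dose, exposure time or strain, and do not explain the 70 in the fat body titles. Treatment and tissue cannot be told apart in either comparison with the control, because no untreated tubules or fat body and no treated whole body are analysed here. Whether the replicates are separate animals or pools is not stated in the labels, so a p-value here reflects only how these libraries vary, and that variation may be technical.

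Library totals recovered from the deposited values ran from 16125682 to 18174747 reads in fat body, 15175796 to 19866421 in tubules and 13435869 to 14803877 in whole body. The chromatin genes took 0.182% to 0.224% of the reads in fat body, 0.186% to 0.300% in tubules and 0.178% to 0.187% in whole body. Levels below are CPM of the library total after TMM scaling. Of 11 V-type proton ATPase genes, which mark tubules, 8 were higher, 1 was lower and 2 were not called in tubules against control. Of all genes tested, 32.6% were higher and 30.2% lower there. The summed level of the 11 was 5645 to 7554 CPM in tubules and 1743 to 1973 CPM in control. Summed fat body markers (15 genes) reached 16160 to 26010 CPM in fat body and 7447 to 9217 CPM in control. That sum rests on a few abundant genes such as the yolk protein precursor vitellogenin (LOC660042, log2 fold change 3.99). Of the 15, 6 were higher and 9 lower in fat body than in control (median log2 fold change -2.03), beside 32.2% and 36.9% of all genes tested. Summed muscle markers (24 genes) were at 26720 to 33220 CPM in fat body, 2143 to 2814 CPM in tubules and 13600 to 13610 CPM in whole body, and their part in the results was not tested. Tubule replicate 2 stood apart from the other tubule libraries: it was the lowest of the 3 for 34 of the 40 chromatin genes, against 36.1% of all genes. Fat body replicate 1 and control replicate 3 also stood apart, with 1959 CPM of summed testis markers (29 genes) in fat body replicate 1 and 5193 CPM in control replicate 3, against 567 to 986 CPM in the other fat body libraries and 2137 to 2145 CPM in the other controls.

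Within the chromatin genes, the most frequent order of the group means had tubules highest, whole body in the middle and fat body lowest, which held for 23 of the 40. In 9 others fat body was highest, tubules came next and whole body was lowest. Per length, as deposited FPKM, the group mean of the 40 genes had its median at 5.04 in fat body, 9.33 in tubules and 6.99 in whole body. The highest was heterochromatin protein 1 in fat body (37.02 FPKM) and in tubules (141 FPKM), and histone chaperone asf1 in whole body (75.5 FPKM). The deposited gene length is close to the whole gene span with introns (median ratio to the RefSeq span 0.997), so FPKM understates genes with long introns. The 10 histones, all short, held 17.96% to 25.8% of the summed FPKM of the 40 genes in the fat body libraries, 42.1% to 48.8% in tubules and 27.1% to 47.4% in whole body.

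**Figure D1:**
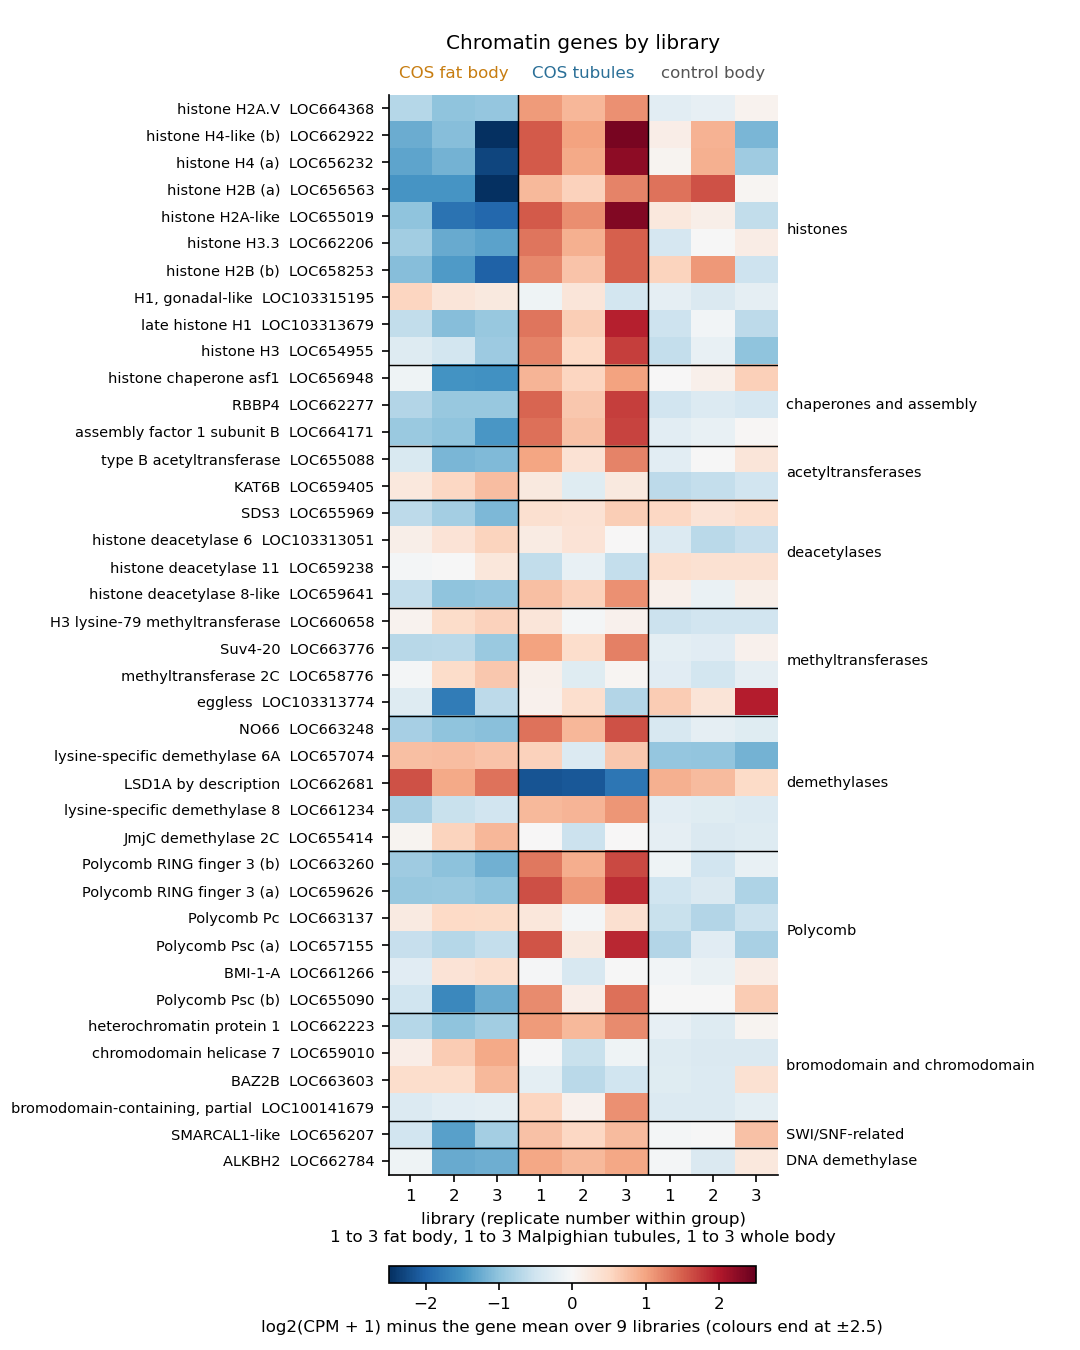
Level of each of the 40 chromatin genes (rows, grouped by role and ordered by mean FPKM) in the 9 libraries (columns), as log2(CPM + 1) minus the gene's mean over the libraries; red is above and blue below that mean, and colours end at ±2.5. Histones other than the gonadal-like H1, assembly factors and 4 of 6 Polycomb genes were red in tubules and blue in fat body, and tubule replicate 2 was mostly paler than replicates 1 and 3.

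The low-count filter kept 39 of the 40 genes. Compared with control whole body, COS fat body had 11 chromatin genes higher and 19 lower at an adjusted p under 0.05, where 32.2% of all 5358 genes tested were higher and 36.9% lower (69.1% called in either direction). The members' median log2 fold change was -0.69, and that of all genes tested was -0.22. In COS tubules, 24 were higher and 2 lower than in control, with 32.6% of all genes higher and 30.2% lower (62.8% in either direction). There the members' median was 0.88 and that of all genes -0.12. For fat body over tubules, 5 were higher and 25 lower, with 38.8% of all genes higher and 41% lower (79.8% in either direction), and the medians were -1.77 for the members and -0.24 for all genes. The share of members called in either direction was 76.9%, 66.7% and 76.9% in these comparisons in turn, near the background. By direction, 28.2% of members were higher and 48.7% lower in fat body against control. In tubules against control these shares were 61.5% and 5.13%, and in fat body against tubules 12.8% and 64.1%. The difference thus lay in the directions, and it was smallest in fat body against control. The libraries did not overlap for 33 members in fat body against control, 11 higher and 22 lower, beside 78.0% of all genes (36.5% higher, 41.5% lower). This was so for 26 members in tubules against control, 24 higher and 2 lower, beside 72.4% of all genes (34.3% higher, 38.1% lower). In fat body against tubules it held for 32 members, 7 higher and 25 lower, beside 80.3% of all genes (39.7% higher, 40.6% lower).

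In the authors' deposited table each of the 5467 genes differs by 1 log2 unit or more in some comparison of these same samples, so none of these counts is independent evidence. All 3 groups enter more than 1 comparison, so the comparisons share samples. With the authors' size factors the tubule split became 15 higher and 6 lower, beside 1259 higher and 2417 lower among all genes. The split of fat body over tubules became 13 higher and 25 lower with them, beside 2503 and 1959 among all genes. With library totals alone the split of fat body over control became 6 higher and 24 lower, beside 1349 and 2399 among all genes. Without tubule replicates 1 and 3 the tubule comparison had 12 higher and 1 lower, with a single tubule library left.

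By gene, 12 of the 39 members tested were lower in fat body and higher in tubules than in control (30.8%, beside 15.4% of all genes tested). LOC662681 alone (1 gene) was higher in fat body and lower in tubules (2.56%, beside 13.7%). Opposite directions of either kind were thus about as frequent among members (33.3%) as among all genes (29.1%). Another 5 were higher than control in both tissues (12.8%, beside 7.0% of all genes): Utx, the DOT1-type methyltransferase gpp (LOC660658), histone deacetylase 6 (LOC103313051), KAT6B (LOC659405) and Polycomb (LOC663137). A single tested gene passed in no comparison, the Polycomb group gene BMI-1-A (LOC661266). In bulk tissue, fewer cells of a type and less RNA per cell cannot be told apart, and this touches every level given here.

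Most markers of dividing cells moved with these counts, and the ovary and egg markers did so in part. Of 31 markers of dividing cells (replication licensing factors, cyclins, DNA polymerases and the like), 0 were higher and 25 lower in fat body than in control, and 26 were higher and 1 lower in tubules. Their summed level was 236 to 435 CPM in fat body, 1383 to 2714 CPM in tubules and 606 to 893 CPM in whole body. In fat body against tubules 1 of the 31 was higher and 30 were lower. Of all genes tested, 32.2% were higher and 36.9% lower in fat body than in control. These shares were 32.6% and 30.2% in tubules against control, and 38.8% and 41% in fat body against tubules. All 3 ovary and egg markers were higher in tubules than in control. In fat body 1 was higher and 0 were lower than in control, and 1 was higher and 2 were lower than in tubules. The higher one was the bicaudal D-related gene LOC657193 (log2 fold change 1.15 over control and 0.64 over tubules). The 3 markers summed to 42.3 to 107 CPM in fat body, 306 to 1263 CPM in tubules and 63.4 to 163 CPM in whole body. The vitellogenin receptor (LOC657346), a receptor of oocytes for yolk protein, was at 51.6, 19.7 and 7.02 CPM in fat body, 604, 202 and 857 CPM in tubules and 57.2, 105 and 34.2 CPM in whole body. No marker of either list was at 0 in all libraries of a group, tubule replicate 2 was the lowest tubule library for both sums, and their part in the chromatin results was not tested. With tubule replicate 2 as the only tubule library, chosen after its levels were seen, the spread comes from the other groups and that library is assumed to vary like them. These counts do not bear on the markers' part. There 13 of the 26 members called in tubules against control were still called (12 higher, 1 lower), and 28 of the 30 called in fat body against tubules (4 higher, 24 lower). Of the 7 histones called in tubules, H2A.V and H3.3 were still called.

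**Figure D2:**
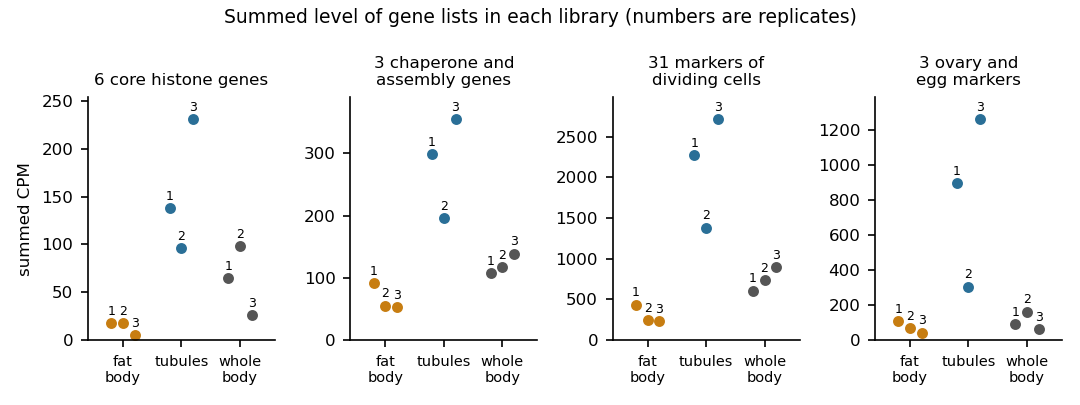
Summed level (CPM, linear axes from 0) of 4 gene lists in each library, numbered by replicate, for COS fat body, COS Malpighian tubules and control whole body. In all 4 lists tubule replicate 2 lay below tubule replicates 1 and 3, and for the core histones it lay at the level of control replicate 2 (96.1 CPM in tubule replicate 2 and 97.9 CPM in control replicate 2).

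By group mean, 7 of the 10 histone genes were lowest in fat body and highest in tubules. The exceptions were the gonadal-like H1 (highest in fat body), the H2B gene LOC656563 (highest in whole body) and the H3 gene LOC654955 (lowest in whole body). Of the 10, 7 were lower and 1 higher in fat body than in control, 7 were higher and 0 lower in tubules than in control, and 9 were lower in fat body than in tubules. Their median log2 fold changes were -1.61, 1.501 and -3.42 in the same order. The shares of the 10 called in either direction were 80%, 70% and 90%, beside 69.1%, 62.8% and 79.8% of all genes tested. The 6 core histone genes summed to 17.3, 17.6 and 5.198 CPM in fat body, 138, 96.1 and 231 CPM in tubules and 64.6, 97.9 and 26 CPM in whole body. Fat body lay below every other library, while tubules and whole body overlapped, since control replicate 2 was just above tubule replicate 2. Histones form families of near-identical copies, and how shared reads were counted is not given, so the split among copies is uncertain.

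Both H4 genes moved alike. The H4 gene LOC656232 had 5.66, 6.31 and 2.36 CPM in fat body, 46.8, 31.1 and 76.9 CPM in tubules and 16.4, 29.8 and 7.90 CPM in whole body. No group overlapped another, although control replicate 2 nearly reached tubule replicate 2. Its log2 fold change from control was -1.91 ± 0.56 (SE) in fat body (adjusted p = 0.0144) and 1.52 ± 0.54 in tubules (adjusted p = 0.0340), and fat body differed from tubules by -3.43 ± 0.59 (adjusted p = 0.000478). The H4-like gene LOC662922 had 7.33, 8.46 and 2.498 CPM in fat body, 55.9, 38.8 and 101 CPM in tubules and 21.1, 35.1 and 7.90 CPM in whole body. Fat body replicate 2 of this gene was above control replicate 3, so those groups overlapped. Against control it changed by -1.80 ± 0.62 in fat body (adjusted p = 0.0286) and by 1.61 ± 0.61 in tubules (adjusted p = 0.0429), and over tubules fat body changed by -3.41 ± 0.66 (adjusted p = 0.001004). The ratio of its count to that of LOC656232 stayed between 1 and 1.34 in all libraries. The tubule calls of both H4 genes were lost without tubule replicate 1 or 3 or control replicate 1 or 3 (adjusted p from 0.0581 to 0.153), under the size factors of the authors (adjusted p = 0.120 for LOC656232 and 0.130 for LOC662922) and with library totals alone (0.0673 and 0.0775). Leaving out control replicate 3 together with fat body replicate 1 also ended them (0.0922 and 0.106). In fat body, LOC656232 did not pass without control replicate 2 (adjusted p = 0.0541), nor LOC662922 without control replicate 1 or 2 or fat body replicate 3 (adjusted p from 0.0536 to 0.106).

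The H2A-like gene LOC655019 was near the counting limit in fat body, with 1.20, 0.227 and 0.135 CPM there (24 reads in all), 11.7, 8.95 and 21.1 CPM in tubules and 4.34, 3.92 and 1.88 CPM in whole body. All 3 groups were apart, and the log2 fold changes were -2.70 ± 0.71 in fat body (adjusted p = 0.00923), 2.04 ± 0.62 in tubules (adjusted p = 0.0169) and -4.74 ± 0.73 for fat body over tubules (adjusted p = 0.000252), the lowest of any member in that comparison. Without tubule replicate 3 its tubule value was 1.61 (adjusted p = 0.0592). The H2B genes differed from this pattern in tubules. The H2B gene LOC656563 had 1.60, 1.59 and 0.135 CPM in fat body, 11.7, 9.81 and 16.1 CPM in tubules and 17.4, 20.7 and 6.52 CPM in whole body. Here tubules and whole body overlapped (log2 fold change -0.25 ± 0.60, adjusted p = 0.726), and fat body was lower than control by a log2 fold change of -3.72 ± 0.70 (adjusted p = 0.00180), the lowest of any member in that comparison. The H2B gene LOC658253, with 23 reads in fat body, likewise passed in fat body over control (-3.29 ± 0.83, adjusted p = 0.00726) and in fat body over tubules (-4.05 ± 0.83, adjusted p = 0.00154) and not in tubules over control (0.76 ± 0.69, adjusted p = 0.351). It was not detected in fat body replicate 3.

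The H3 gene LOC654955 was low everywhere but in tubules, at 0.600, 0.454 and 0.0675 CPM in fat body, 3.72, 1.80 and 5.62 CPM in tubules and 0.324, 0.759 and 0 CPM in whole body. The 3 fat body libraries held 18 reads and the 3 controls 17, so a difference between those groups was not detectable at this depth (0.06 ± 0.996, adjusted p = 0.958). Tubules were above both, by a log2 fold change of 3.34 ± 0.87 over control (adjusted p = 0.00820). The first title of its deposited description names bacteria, although the gene was counted on the beetle assembly. Late histone H1 (LOC103313679), a linker histone, was also highest in tubules, with 16 reads in fat body, 266 in tubules and 41 in whole body. It was higher in tubules than in control by a log2 fold change of 2.65 ± 0.54 (adjusted p = 0.00236), and its fat body value of -1.33 ± 0.64 did not pass (adjusted p = 0.0877).

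Genes described as variants, a class made outside DNA copying, moved in the same directions. Histone H2A.V (LOC664368), at promoters and damaged DNA in Drosophila, had 46.3, 37.5 and 38.7 CPM in fat body, 160, 136 and 170 CPM in tubules and 63.6, 66.3 and 80.4 CPM in whole body. The groups were apart and close within themselves, and it changed by -0.78 ± 0.17 in fat body (adjusted p = 0.00331), by 1.15 ± 0.17 in tubules (adjusted p = 0.000341) and by -1.93 ± 0.17 for fat body over tubules (adjusted p = 9.4e-06). Histone H3.3 (LOC662206), by description the replacement form of H3, had 2.53, 1.70 and 1.55 CPM in fat body, 15.4, 11.04 and 17.1 CPM in tubules and 3.82, 5.38 and 6.33 CPM in whole body. Its log2 fold changes were -1.42 ± 0.31 in fat body (adjusted p = 0.00348) and 1.48 ± 0.29 in tubules (adjusted p = 0.00190). Both genes kept their calls in all 3 comparisons under all 18 alternative fits. They are variants by description only, since their deposited orthology entries are histone H2A and histone H3. The deposited protein of LOC662206 has 125 residues, and that of the H3 gene LOC654955 has 136.

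The exception among the histones was the gonadal-like H1 gene LOC103315195, a linker histone by description with no deposited domain entry. It had 3.13, 2.499 and 2.36 CPM in fat body, 1.65, 2.53 and 1.07 CPM in tubules and 1.43, 1.20 and 1.44 CPM in whole body. Fat body lay above control with a log2 fold change of 0.97 ± 0.33 (adjusted p = 0.0286), and tubules overlapped both groups. The fat body call was weak, since leaving out any of fat body replicates 1 and 2 or any control ended it (adjusted p from 0.0509 to 0.0892), as did library totals alone (0.0750) and the loss of both control replicate 3 and fat body replicate 1 (0.113).

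**Figure D3:**
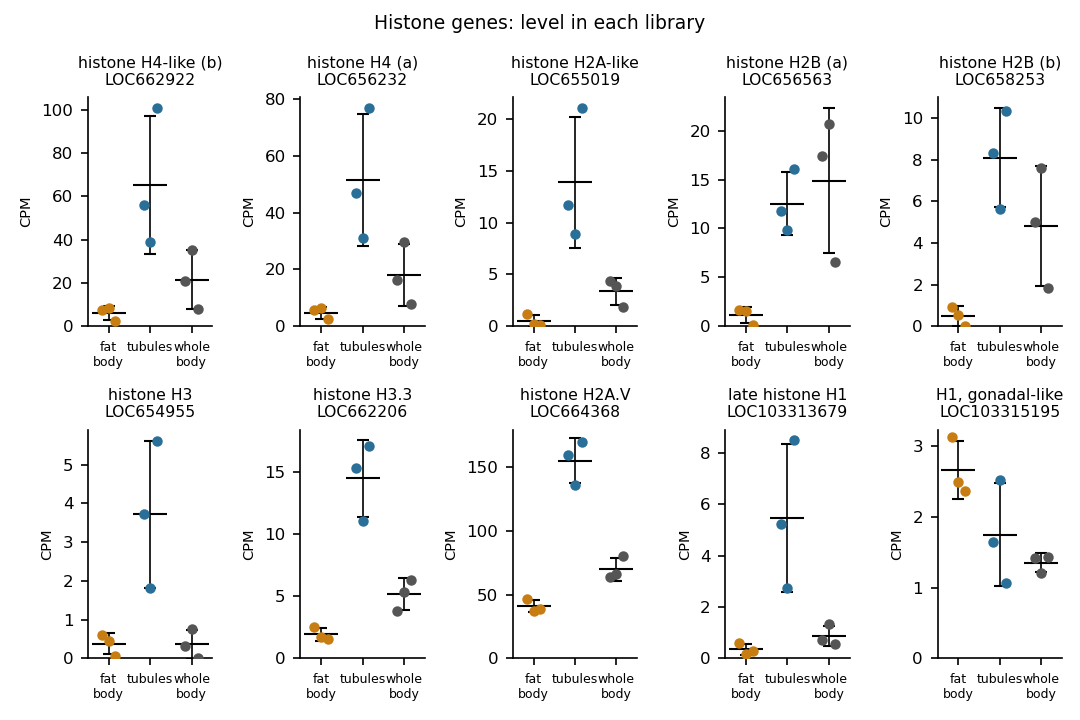
CPM of the 10 histone genes in each library (points, linear axes from 0) for COS fat body, COS Malpighian tubules and control whole body, with group mean (bar) and SD (whiskers, n = 3). Fat body was lowest for 8 of the 10 by group mean; the exceptions were the gonadal-like H1, highest in fat body, and H3, where fat body and whole body were both near 0.

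Chaperone and assembly genes were also lowest in fat body and highest in tubules. All 3 were lower in fat body than in tubules, 2 were lower in fat body than in control and 2 were higher in tubules than in control. This is 100%, 66.7% and 66.7% of the 3 called, beside 79.8%, 69.1% and 62.8% of all genes tested. RBBP4 (LOC662277, Caf1-55), a histone-binding protein shared by chromatin assembly factor 1, deacetylase and Polycomb complexes, had 34.9, 29.99 and 29.97 CPM in fat body, 163, 93.9 and 198 CPM in tubules and 41.99, 45.9 and 43.6 CPM in whole body. It was higher in tubules than in control by a log2 fold change of 1.79 ± 0.25 (adjusted p = 0.000296), and its value of -0.47 ± 0.25 in fat body did not pass (adjusted p = 0.114) although the libraries did not overlap. Chromatin assembly factor 1 subunit B (LOC664171, Caf1-105), which deposits H3 and H4 behind the replication fork, had 7.33, 6.82 and 4.73 CPM in fat body, 39.8, 25.2 and 50.1 CPM in tubules and 12.1, 12.9 and 15.04 CPM in whole body. It changed by -1.08 ± 0.28 in fat body (adjusted p = 0.00860) and by 1.52 ± 0.28 in tubules (adjusted p = 0.00130). The chaperone asf1 (LOC656948), which hands H3 and H4 to assembly factors, had 48.98, 18.2 and 17.96 CPM in fat body, 95.5, 77.2 and 107 CPM in tubules and 53.1, 57.8 and 80.1 CPM in whole body. Fat body replicate 1 came near control replicate 1, and the fat body change of -1.17 ± 0.39 (adjusted p = 0.0254) did not pass without fat body replicate 2 or 3 or control replicate 3 (adjusted p from 0.0617 to 0.0829). Tubules overlapped whole body for asf1 (0.55 ± 0.39, adjusted p = 0.231).

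The 2 acetyltransferases parted in fat body. Type B acetyltransferase Hat1 (LOC655088), which acetylates newly made histone H4 before it reaches DNA, had 51.4, 29.9 and 30.6 CPM in fat body, 134, 86.0 and 160 CPM in tubules and 55.9, 67.0 and 83.6 CPM in whole body. It changed by -0.88 ± 0.30 in fat body (adjusted p = 0.0265) and by 0.88 ± 0.30 in tubules (adjusted p = 0.0280), with all groups apart. KAT6B (LOC659405, enok), a MYST family enzyme that in Drosophila is needed in neurons and the germline, had 136, 164 and 194 CPM in fat body, 135, 91.8 and 134 CPM in tubules and 72.2, 75.2 and 81.2 CPM in whole body. It was higher than control in fat body (1.11 ± 0.20, adjusted p = 0.00141) and in tubules (0.66 ± 0.20, adjusted p = 0.0165), and fat body over tubules did not pass (0.45 ± 0.20, adjusted p = 0.0576). Both tubule calls were lost without tubule replicate 1 or 3 or control replicate 1 or 2 (adjusted p from 0.0533 to 0.0984), with the authors' size factors (0.214 for LOC655088 and 0.469 for LOC659405) and with library totals alone (0.0776 and 0.0916). The fat body call of LOC655088 was lost without fat body replicate 2 or 3 or control replicate 2 or 3 (adjusted p from 0.0509 to 0.0884) and with RLE factors (0.0523).

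Of the 4 deacetylase genes, no 2 shared a set of calls. Histone deacetylase 6 (LOC103313051), which in mammals acts on tubulin in the cytoplasm, had 77.03, 89.2 and 103 CPM in fat body, 80.4, 88.7 and 70.2 CPM in tubules and 54.9, 43.2 and 46.2 CPM in whole body. It was higher than control in fat body (0.90 ± 0.18, adjusted p = 0.00214) and in tubules (0.73 ± 0.18, adjusted p = 0.00544). With the authors' size factors the tubule value was 0.24 and did not pass (adjusted p = 0.291). Histone deacetylase 11 (LOC659238), which in mammals removes fatty acyl groups, had 6.93, 7.16 and 9.05 CPM in fat body, 4.39, 6.20 and 4.41 CPM in tubules and 9.98, 9.75 and 9.65 CPM in whole body. The controls were tight and above both tissues, and the change passed in tubules (-0.97 ± 0.22, adjusted p = 0.00432) and not in fat body (-0.34 ± 0.22, adjusted p = 0.179). Fat body was higher than tubules by a log2 fold change of 0.63 ± 0.22 (adjusted p = 0.0268), a call lost without tubule replicate 1 or 3 or fat body replicate 3 (adjusted p from 0.0725 to 0.0975) and with only these groups in the fit (0.0760).

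The deacetylase 8-like gene LOC659641 had 3.20, 2.16 and 2.23 CPM in fat body, 9.61, 8.44 and 12.9 CPM in tubules and 5.90, 4.62 and 6.02 CPM in whole body. It changed by -1.12 ± 0.27 in fat body (adjusted p = 0.00586) and by 0.90 ± 0.26 in tubules (adjusted p = 0.0135), the tubule call being lost without control replicate 2 (adjusted p = 0.0591) and under the authors' size factors (0.165). In the RefSeq table of assembly icTriCast1.1 it lies 7 genes from LOC659238, which moved the other way in tubules. SDS3 (LOC655969), a subunit that holds the Sin3 deacetylase complex together, had 17.9, 15.5 and 12.7 CPM in fat body, 38.7, 37.6 and 44.8 CPM in tubules and 41.9, 36.8 and 38.8 CPM in whole body. It was lower in fat body than in control (-1.35 ± 0.18, adjusted p = 0.000337) while tubules and whole body overlapped (0.04 ± 0.17, adjusted p = 0.828). Under the authors' size factors its tubule value was -0.45 (adjusted p = 0.0461).

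Among methyltransferases, 2 were higher and 2 lower in fat body than in control, and 2 were higher in tubules. This is 100% and 50% of the 4 called, beside 69.1% and 62.8% of all genes tested. The DOT1-type enzyme gpp (LOC660658), which methylates the core of histone H3 at transcribed genes, had 89.9, 117 and 126 CPM in fat body, 104, 82.0 and 90.8 CPM in tubules and 58.0, 60.1 and 60.3 CPM in whole body. Both tissues lay above control, in fat body by a log2 fold change of 0.90 ± 0.17 (adjusted p = 0.00179) and in tubules by 0.63 ± 0.17 (adjusted p = 0.00929). The tubule value was 0.14 with the authors' size factors (adjusted p = 0.497) and 0.40 with library totals alone (adjusted p = 0.0733). Suv4-20 (LOC663776, Hmt4-20), which methylates histone H4 in silent chromatin, had 40.8, 41.6 and 34.7 CPM in fat body, 135, 91.3 and 162 CPM in tubules and 56.0, 54.7 and 72.1 CPM in whole body. It changed by -0.64 ± 0.23 in fat body (adjusted p = 0.0314) and by 1.09 ± 0.23 in tubules (adjusted p = 0.00262). The fat body call was lost without fat body replicate 2 or 3 or control replicate 3 (adjusted p from 0.0566 to 0.164), under the authors' size factors (0.0733) and with both control replicate 3 and fat body replicate 1 left out (0.127). It was also lost with RLE factors (0.162) and with DESeq2 (0.174).

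Methyltransferase 2C (LOC658776), in mammals an enzyme of enhancers that works in 1 complex with the Utx homologue, had 157, 221 and 257 CPM in fat body, 177, 130 and 167 CPM in tubules and 133, 117 and 139 CPM in whole body. Fat body was higher than control (0.71 ± 0.21, adjusted p = 0.0143), and tubules overlapped both other groups. That call was lost without fat body replicate 3 or control replicate 2 (adjusted p = 0.0571 and 0.0594) and with library totals alone (0.0849). The gene described as eggless (LOC103313774), in Drosophila a methyltransferase for histone H3 required in the ovary, had 3.07, 0.511 and 2.23 CPM in fat body, 4.50, 5.84 and 2.07 CPM in tubules and 6.93, 5.38 and 18.9 CPM in whole body. Control replicate 3, the library with the most testis marker RNA, was highest, and fat body was lower than control by a log2 fold change of -2.44 ± 0.71 (adjusted p = 0.0142). Tubules over control, -1.33 ± 0.67, did not pass (adjusted p = 0.111) but did with the authors' size factors (0.0349) and with DESeq2 (0.0488). Its deposited protein has 304 residues with a Tudor domain and no SET domain entry, the domain of the enzyme's activity.

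Of the 5 demethylases, 3 were higher and 1 was lower than control in fat body, and 3 were higher and 1 was lower in tubules. This is 80% called in each comparison, beside 69.1% and 62.8% of all genes tested. LOC662681, whose orthology entry differs from its description, was the one lower in tubules and among those higher in fat body. Utx (LOC657074), which removes the methyl mark that Polycomb complexes place on histone H3, had 282, 284 and 275 CPM in fat body, 251, 132 and 267 CPM in tubules and 84.6, 83.4 and 72.6 CPM in whole body. Every tissue library was above every control, the fat body libraries were nearly equal, and tubule replicate 2 was the lowest of the tissue libraries. Its log2 fold change was 1.81 ± 0.25 in fat body (adjusted p = 0.000411), the largest rise of any member there, and 1.43 ± 0.25 in tubules (adjusted p = 0.000862). Over all 18 alternative fits the tubule value ran from 0.76 to 1.69 and passed each time. Fat body over tubules was 0.37 ± 0.24 and did not pass (adjusted p = 0.179), but passed with the authors' size factors (1.04, adjusted p = 0.00274) and without tubule replicates 1 and 3 (1.14, adjusted p = 0.00531).

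The JmjC demethylase 2C gene (LOC655414), a relative of the mammalian KDM3 enzymes, had 277, 391 and 471 CPM in fat body, 269, 182 and 267 CPM in tubules and 226, 205 and 212 CPM in whole body. It was higher in fat body than in control (0.82 ± 0.22, adjusted p = 0.0104; 0.0550 with library totals alone) and overlapped in tubules (0.16 ± 0.22, adjusted p = 0.545). Over tubules it was higher in fat body by 0.67 ± 0.22 (adjusted p = 0.0207), lost without tubule replicate 2 or fat body replicate 3 (adjusted p from 0.0612 to 0.0818) and with only these groups in the fit (0.0572). NO66 (LOC663248), in human cells a nucleolar hydroxylase of a ribosomal protein and a demethylase of histone H3, had 13.7, 11.9 and 11.6 CPM in fat body, 66.0, 45.5 and 77.4 CPM in tubules and 18.8, 21.1 and 20.1 CPM in whole body. Its tubule rise of 1.65 ± 0.21 was the largest among the demethylases (adjusted p = 0.000164), and its fat body fall of -0.69 ± 0.21 (adjusted p = 0.0169) was lost without fat body replicate 2 or 3 or control replicate 3 (adjusted p from 0.0524 to 0.0569), with RLE factors (0.100) and with DESeq2 (0.107). Lysine-specific demethylase 8 (LOC661234, JMJD5) had 4.27, 5.28 and 5.67 CPM in fat body, 15.1, 15.6 and 18.9 CPM in tubules and 6.74, 6.46 and 6.27 CPM in whole body, and it passed in tubules (1.35 ± 0.20, adjusted p = 0.000352) and not in fat body (-0.35 ± 0.20, adjusted p = 0.133).

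LOC662681 was lowest in tubules, unlike most chromatin genes. It had 55.6, 34.9 and 46.7 CPM in fat body, 3.21, 3.32 and 4.35 CPM in tubules and 33.6, 31.3 and 25.1 CPM in whole body. Tubules lay far below both other groups, with a log2 fold change of -3.05 ± 0.24 over control (adjusted p = 1.41e-05), the lowest of any member there, and fat body over tubules was 3.66 ± 0.25 (adjusted p = 2.62e-06), the highest. Fat body over control was 0.61 ± 0.22 (adjusted p = 0.0356) and was lost without fat body replicate 1 or 3 or control replicate 2 or 3 (adjusted p from 0.0797 to 0.110), with library totals alone (0.206) and with both control replicate 3 and fat body replicate 1 left out (0.261). Its description names a histone demethylase of the LSD1 type, but the deposited orthology entry is spermine oxidase. The deposited domain entries are amine oxidase, a fold that both kinds of enzyme share, and the FAD/NAD(P)-binding superfamily.

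**Figure D4:**
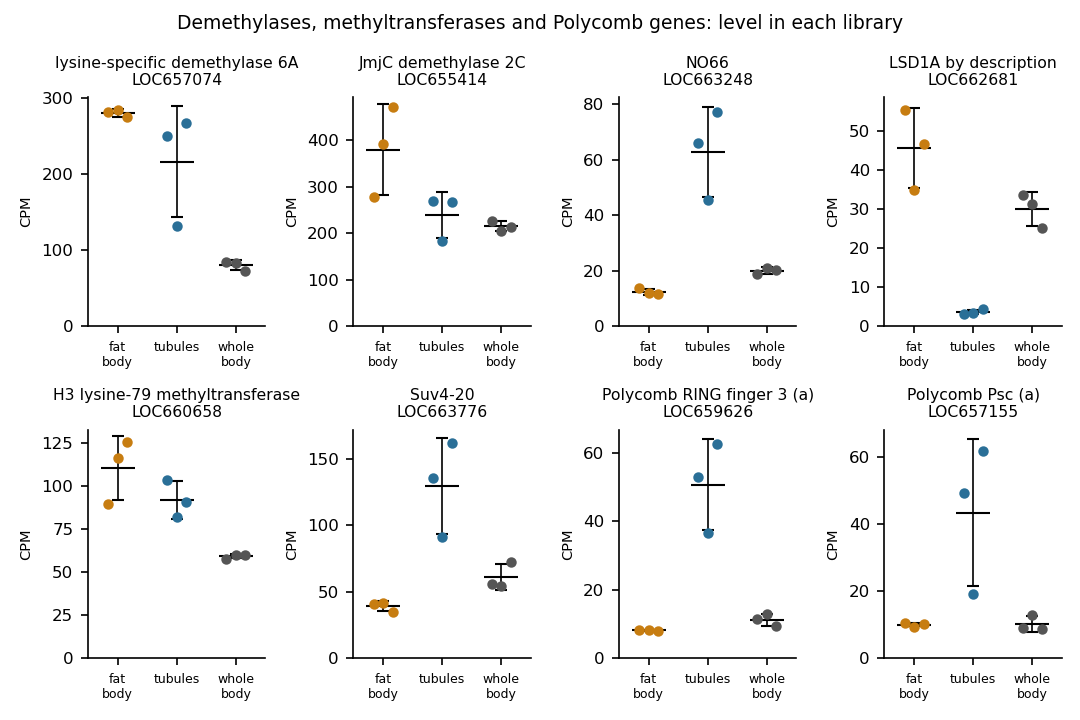
CPM of 8 demethylase, methyltransferase and Polycomb genes in each library (points, linear axes from 0) for COS fat body, COS Malpighian tubules and control whole body, with group mean (bar) and SD (whiskers, n = 3). Utx and the H3 lysine methyltransferase gpp were above control in both tissues, NO66, Suv4-20, PCGF3 and Psc peaked in tubules, and LOC662681 was at 3.21 to 4.35 CPM in tubules.

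Polycomb group genes were higher in tubules in 4 of 6 cases and none was lower, and in fat body 1 was higher and 2 were lower than in control. This is 66.7% called in tubules and 50% in fat body, beside 62.8% and 69.1% of all genes tested. Polycomb RING finger 3 (LOC659626, l(3)73Ah in the RefSeq table), a ubiquitin ligase cofactor of Polycomb repressive complex 1, had 8.20, 8.35 and 7.83 CPM in fat body, 52.9, 36.4 and 62.6 CPM in tubules and 11.5, 12.9 and 9.34 CPM in whole body. Tubules were higher than control by a log2 fold change of 2.17 ± 0.23 (adjusted p = 6.03e-05), and fat body at -0.47 ± 0.23 did not pass (adjusted p = 0.0893). A further gene with the same description (LOC663260) had 2.93, 2.56 and 2.16 CPM in fat body, 17.1, 12.7 and 21.7 CPM in tubules and 5.70, 4.24 and 5.39 CPM in whole body. It changed by -1.001 ± 0.27 in fat body (adjusted p = 0.00936) and by 1.74 ± 0.26 in tubules (adjusted p = 0.000383), with all groups apart.

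The 2 genes described as Posterior sex combs (Psc), which in Drosophila compacts nucleosomes within Polycomb repressive complex 1, are direct neighbours in assembly icTriCast1.1 with 0 genes between them. LOC657155 had 10.5, 9.43 and 10.3 CPM in fat body, 49.3, 19.2 and 61.9 CPM in tubules and 9.20, 12.97 and 8.65 CPM in whole body. It was higher in tubules than in control by a log2 fold change of 2.08 ± 0.39 (adjusted p = 0.00143), and fat body overlapped whole body (-0.03 ± 0.38, adjusted p = 0.948). LOC655090 had 16.3, 6.93 and 9.32 CPM in fat body, 54.0, 26.4 and 62.6 CPM in tubules and 23.3, 23.3 and 36.8 CPM in whole body. Here tubule replicate 2 fell among the controls (0.78 ± 0.40, adjusted p = 0.115), and fat body was lower than control (-1.36 ± 0.41, adjusted p = 0.0163), lost without fat body replicate 2 or 3 (adjusted p from 0.0518 to 0.0566). The neighbours were thus called in different comparisons against the control, and both were lower in fat body than in tubules (-2.11 ± 0.39 for LOC657155 and -2.14 ± 0.42 for LOC655090).

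Polycomb itself (Pc, LOC663137), the chromodomain reader of the mark that Utx removes, had 34.7, 42.4 and 41.7 CPM in fat body, 36.5, 28.6 and 39.5 CPM in tubules and 20.03, 17.6 and 20.2 CPM in whole body. It was higher than control in fat body (1.04 ± 0.18, adjusted p = 0.00114) and in tubules (0.85 ± 0.18, adjusted p = 0.00254; 0.103 with the authors' size factors), and the tissues overlapped. BMI-1-A (LOC661266), named after the vertebrate homologue of Psc, had 20.3, 31.9 and 33.9 CPM in fat body, 24.6, 18.8 and 24.7 CPM in tubules and 23.9, 22.02 and 28.4 CPM in whole body. All groups overlapped and no comparison passed (adjusted p from 0.199 to 0.637), whereas with the authors' size factors it was lower in tubules than in control (-0.62, adjusted p = 0.0398) and higher in fat body than in tubules (1.01, adjusted p = 0.00280).

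Of the bromodomain and chromodomain genes, heterochromatin protein 1 (LOC662223), which binds methylated histone H3 in silent chromatin, had 55.7, 45.7 and 50.4 CPM in fat body, 194, 163 and 210 CPM in tubules and 79.9, 73.9 and 96.9 CPM in whole body. It changed by -0.72 ± 0.17 in fat body (adjusted p = 0.00518), by 1.18 ± 0.17 in tubules (adjusted p = 0.000322) and by -1.90 ± 0.17 for fat body over tubules (adjusted p = 1.10e-05). The 2 large proteins moved otherwise. Chromodomain helicase 7 (LOC659010, kis), an ATP-driven remodeler, had 203, 278 and 346 CPM in fat body, 176, 122 and 166 CPM in tubules and 143, 139 and 139 CPM in whole body, so that fat body was above both other groups (0.97 ± 0.22 over control, adjusted p = 0.00417, and 0.83 ± 0.22 over tubules, adjusted p = 0.00580). BAZ2B (LOC663603, tou), a bromodomain protein of remodeling complexes, had 195, 196 and 253 CPM in fat body, 121, 89.7 and 102 CPM in tubules and 117, 113 and 188 CPM in whole body. Fat body was higher than tubules (1.04 ± 0.23, adjusted p = 0.00245). Over control its value of 0.63 ± 0.23 (adjusted p = 0.0368) was lost without fat body replicate 2 or 3 or control replicate 1 or 2 (adjusted p from 0.0534 to 0.140), with only these groups in the fit (0.0539) and with library totals alone (0.154). Tubules over control did not pass (-0.42 ± 0.23, adjusted p = 0.139), but passed with the authors' size factors (-0.90, adjusted p = 0.00494) and with library totals alone (-0.64, adjusted p = 0.0303).

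LOC100141679, a partial protein described as bromodomain-containing, fell to the low-count filter, with 0, 1 and 1 reads in fat body, 16, 5 and 27 in tubules and 0, 0 and 1 in whole body. It was detected in all tubule libraries, its deposited orthology entry is a kinesin and it has no domain entry. The SMARCAL1-like helicase (LOC656207, Marcal1), which in mammals rewinds DNA at stalled replication forks, had 15.4, 7.90 and 11.8 CPM in fat body, 36.9, 31.7 and 38.7 CPM in tubules and 21.1, 21.7 and 37.2 CPM in whole body. Fat body was lower than control (-1.19 ± 0.30, adjusted p = 0.00755), and tubules overlapped control through control replicate 3 (0.43 ± 0.30, adjusted p = 0.226). ALKBH2 (LOC662784), which removes alkyl groups from DNA bases and not from histones, had 15.7, 6.53 and 6.75 CPM in fat body, 34.01, 30.7 and 34.2 CPM in tubules and 16.5, 12.97 and 20.6 CPM in whole body. It was higher in tubules than in control (0.98 ± 0.34, adjusted p = 0.0314), a call lost without any 1 tubule library or control replicate 1 or 2 (adjusted p from 0.0531 to 0.106), with the authors' size factors (0.178) and with library totals alone (0.0730).

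In fat body against control, short chromatin genes were mostly lower and long ones mostly higher. In tubules against control short ones were mostly higher, whereas 6 of the 10 long ones were not called. Of the 24 with a deposited length under 3 kb, 23 were tested: 1 was higher and 17 lower in fat body than in control, 15 were higher and 1 lower in tubules, and 1 was higher and 20 lower in fat body than in tubules. All 10 histones were among these 24, so length and role overlap here. Of all 2468 genes tested under 3 kb, 22% were higher and 49.2% lower in fat body than in control, and 38.4% higher and 24.7% lower in tubules. In fat body against tubules 27.2% were higher and 53.3% lower. Of the 10 over 18 kb, 6 were higher and 1 lower in fat body than in control, 4 were higher and 0 lower in tubules, and 3 were higher and 3 lower in fat body than in tubules. Of all 835 genes tested over 18 kb, 48.02% were higher and 16.8% lower in fat body than in control, and 21.6% higher and 40.6% lower in tubules. In fat body against tubules 58.4% were higher and 18.7% lower. Across the 39 genes, Spearman's rho of length with log2 fold change was 0.58 in fat body against control, -0.27 in tubules against control and 0.59 in fat body against tubules. Over all 5358 genes tested, which share the same libraries, it was 0.28, -0.10 and 0.25 in the same order. All genes under 3 kb had a median log2 fold change of -1.39 for fat body over tubules, and those over 18 kb had 0.74; the medians of the chromatin genes were -2.26 and 0.40. These length limits were chosen after the values were seen, and genes are not independent replicates.

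**Figure D5:**
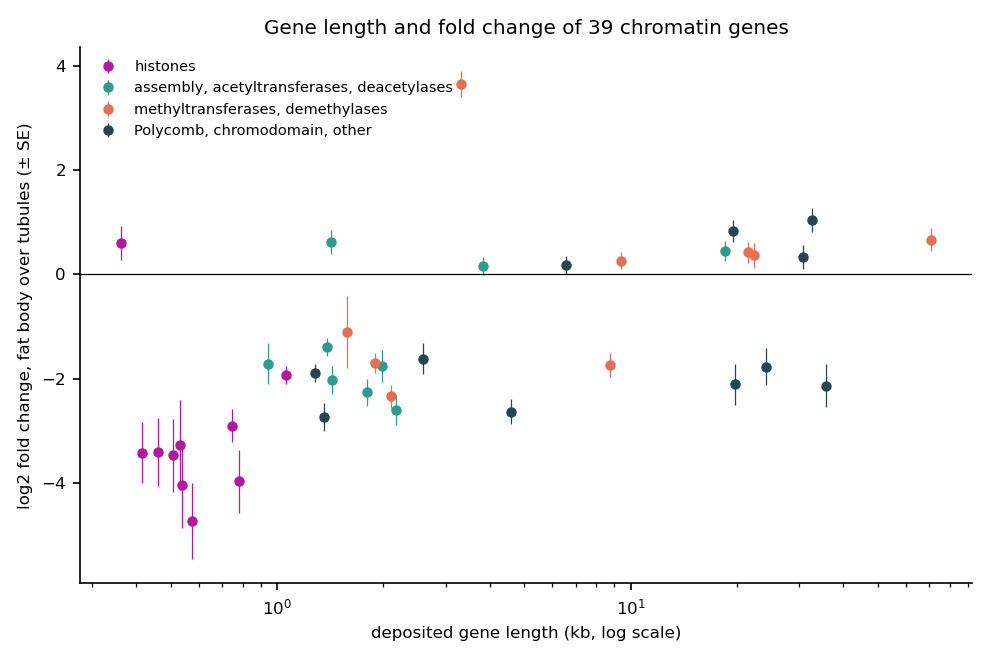
Log2 fold change of fat body over tubules (vertical axis, ± SE) against deposited gene length (horizontal axis, kb, log scale) for the 39 chromatin genes tested, coloured by role. The 8 lowest points were histones (-2.91 or below), H2A.V (-1.93) and the gonadal-like H1 (0.61) lay higher, genes over 18 kb lay on both sides of 0, and the highest point is LOC662681.

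Further genes of chromatin and chromosome structure that the rule does not take (21, among them condensin, origin recognition and structural maintenance of chromosomes genes) had 2 higher and 16 lower in fat body than in control, 14 higher and 0 lower in tubules than in control, and 1 higher and 16 lower in fat body than in tubules. Their medians were -1.06, 1.06 and -1.81. The shares of the 21 called in either direction were 85.7%, 66.7% and 80.95% in the same order. Of all genes tested, 69.1%, 62.8% and 79.8% were called. Origin recognition complex subunit 4 (LOC659529), which marks where DNA copying starts, had 7.40, 7.78 and 4.59 CPM in fat body, 43.8, 58.5 and 40.9 CPM in tubules and 18.7, 20.2 and 18.3 CPM in whole body. The gene described as putative DNA helicase INO80 (LOC662035) was by contrast high in both tissues, at 936, 933 and 930 CPM in fat body, 1072, 1085 and 854 CPM in tubules and 328, 314 and 285 CPM in whole body. It was higher than control by a log2 fold change of 1.59 in fat body (adjusted p = 7.02e-05) and 1.70 in tubules (adjusted p = 1.56e-05). Methyl-CpG-binding domain protein 5 (LOC660029) was higher in fat body than in control (1.03, adjusted p = 0.00191) and than in tubules (0.67, adjusted p = 0.0107). These 3 genes were chosen after their values were seen.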

How the data were processed

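RNA-seq of 9 libraries in 3 groups was read from 1 deposited table. TRIzol extraction, DNase I treatment and alignment to Tcas5.2 are per the labels' protocols, and Trimmomatic 0.32 is per the submitters' processing notes. Aligner, counter, strandedness and RNA selection were not given in the sources used here, so overlapping and antisense genes are uncertain. Per the file headers the authors deposited expected counts (all whole numbers), a DESeq-normalized signal, FPKM, TPM and log2 fold changes. Other per-sample columns numbered 0.

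Counts were rounded and tested on the whole table with edgeR 4.0.16 in R 4.3.3: filterByExpr (109 genes left out), TMM factors, library totals recovered from count, FPKM and length, 1 fit of all 9 libraries without covariates, the quasi-likelihood F test, and Benjamini-Hochberg adjustment over 5358 genes at 0.05. Each SE is an approximation, the size of the log2 fold change over the root of F, and may be too small at few counts. Replicate libraries differed beyond sampling noise (chi-square per degree of freedom 21.2 to 142). The method was tested on simulated data in which few genes changed. Most genes were called in the real comparisons, so that test does not bear on the choice of scaling. DESeq2 1.42.0 was an alternative. The members, their roles and the lists were chosen with earlier results of these data known. Named are Utx, all histones, each role's most abundant member and its largest changes among called genes whose groups did not overlap, and members called nowhere. Others named for completeness were chosen after their values were seen. Of the 40 genes, 35 had an entry in a RefSeq table of assembly icTriCast1.1, used for names and neighbours. Sequences were not used here.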

Additional observations from a re-analysis of the deposited data

Results flagged for a closer look

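For 13 chromatin genes the effects against control were called in opposite directions in the 2 tissues, which is 33.3% of the 39 tested, beside 29.1% of all genes tested. Fat body over tubules is the difference of these effects in the same fit, so that it passed for each follows from how the genes were picked and is given as a description. As log2 fold changes of fat body over tubules, 12 were negative: -4.74 for the H2A-like gene LOC655019, -3.43 and -3.41 for the H4 genes LOC656232 and LOC662922, -2.91 for H3.3 (LOC662206), -2.75 for the Polycomb RING finger gene LOC663260, -2.61 for assembly factor subunit B (LOC664171) and -2.35 for NO66 (LOC663248). The smaller ones were -2.03 for the deacetylase 8-like gene LOC659641, -1.93 for H2A.V (LOC664368), -1.90 for heterochromatin protein 1 (LOC662223), -1.76 for Hat1 (LOC655088) and -1.73 for Suv4-20 (LOC663776). The positive one was 3.66 for LOC662681. Genes entered the table by their size of change in these samples, the contrast between the tissues included, and the part of that selection in this count was not tested.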

How the results depend on the processing

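Over 18 alternative fits no called member changed direction, and 18 of 30 fat body calls, 12 of 26 tubule calls and 27 of 30 calls between the tissues passed in every one. Relative to TMM, the median log2 fold change of all genes for fat body over control, tubules over control and fat body over tubules shifted by 0.20, 0.04 and 0.16 with RLE factors, by 0.16, -0.49 and 0.66 with the authors' size factors and by -0.26, -0.23 and -0.02 with library totals alone. Genes higher in tubules than in control numbered 24, but 15 with the authors' size factors and 12 without tubule replicates 1 and 3 (13 called in all), a setting chosen after seeing the data. Genes lower there numbered 2, but 6 with the authors' size factors, 1 without replicates 1 and 3 and 1 without the 4 genes of doubtful or DNA-related function. In fat body over control, 11 were higher, but 6 with library totals alone and 7 to 11 leaving out 1 library, the lowest without control replicate 2. In fat body over tubules, 5 were higher, but 13 with the authors' size factors, 8 without control replicate 3 and fat body replicate 1, 3 with only both groups in the fit, and 3 to 9 leaving out 1 library, the lowest without fat body replicate 3 and the highest without fat body replicate 1. Replicate numbers do not pair the samples (correlations of same-numbered libraries from -0.50 to 0.42), and with a replicate block the calls of higher and lower were 9 and 18 in fat body, 23 and 2 in tubules and 4 and 25 between the tissues.

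Values that turned sign belonged to genes not called: in tubules over control, with the authors' size factors, LOC655414 (-0.34), LOC658776 (-0.21), LOC659010 (-0.36), LOC656207 (-0.053), LOC655969 (-0.45) and LOC103315195 (-0.12). With library totals alone they were LOC655414 (-0.071), LOC659010 (-0.093) and LOC655969 (-0.19), and without tubule replicates 1 and 3 LOC655414 (-0.20), LOC659010 (-0.17), LOC655969 (-0.018) and LOC655090 (-0.020). Leaving out 1 or 2 libraries gave -0.36 to 0.007 for LOC661266, -0.036 to 0.091 for LOC655969 and -0.61 to 0.072 for LOC656563, and the replicate block gave 0.019 for LOC656563. In fat body over control, LOC661266 was -0.042 with library totals alone, and LOC657155 was 0.16 with RLE factors, 0.13 with the authors' size factors, 0.054 without tubule replicates 1 and 3, 0.16 with DESeq2 and -0.17 to 0.15 leaving out 1 or 2 libraries. LOC654955 was -0.19 with library totals alone, and -0.98 to 1.18 leaving out 1 or 2 libraries, the lowest without control replicate 3 and fat body replicate 1. The cause was not tested, except that leaving out libraries also leaves fewer samples. Depth limits 4 histone genes with 16 to 24 reads in fat body.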
